A study of Homo sapiens with 12 samples.

Results

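Genes of the unfolded protein response of the endoplasmic reticulum (ER) were followed in MOLM-13 cells, a human acute myeloid leukemia line that carries an internal tandem duplication of the receptor tyrosine kinase FLT3. The 10 members, HSPA5, HSP90B1, XBP1, DNAJB9, DNAJC3, HERPUD1, SEL1L, EDEM1, PDIA4 and SDF2L1, were chosen by name as known genes of this response, out of 57353 gene names counted by RNA-seq. In 12998 genes with enough reads to test, all 10 were present. MOLM-13 cells were exposed for 15 hr to quizartinib, an inhibitor of FLT3, at 3 nM, or to vehicle (DMSO), either in plain RPMI medium or in medium conditioned by marrow stromal cells of human origin, called hBMSC-CM. The 4 groups were thus vehicle in RPMI, quizartinib in RPMI, vehicle in hBMSC-CM and quizartinib in hBMSC-CM, with 3 libraries each and 12 in all. The labels give all of them as wild type, so no group carried an engineered allele, and every library came from the same cell line. The conditioned medium was taken from cultures of the HS-5 stromal line, mixed with RPMI, and is therefore a model of soluble factors from marrow stroma, without stromal cells in the culture. The design asks what FLT3 inhibition did to these transcripts, and whether the medium changed that response.

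The unfolded protein response adjusts the folding capacity of the ER to the load of proteins that enter it. Sensors in the ER membrane, ERN1 (IRE1), ATF6 and EIF2AK3 (PERK), start it: activated IRE1 splices XBP1 mRNA so that it encodes a potent transcription factor, ATF6 is cut and moves to the nucleus, and PERK slows translation and favours ATF4. Their targets include ER chaperones, disulfide isomerases and the machinery of ER-associated degradation (ERAD), which returns misfolded proteins to the cytosol for the proteasome. The response is well known in secretory cells such as plasma cells, and transcripts such as HSPA5 are used as its readouts in many other cells, leukemia cells included.

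Many targets of ATF6 and XBP1 carry an ER stress response element (ERSE) near the start site, and the sequences below show which members held its letters. Promoter windows from RefSeq (GRCh38.p14), 250 bases before to 50 after a transcription start, were found for all 10 members, with more than 1 start for XBP1 and PDIA4 and 12 windows in all. ERSE was searched as CCAAT, any 9 bases, then CCACG; the related ERSE-II as ATTGG, any base, then CCACG; and the core of the UPR element as TGACGTG, each on both strands. ERSE matched in 3 of 10 members, HSPA5, XBP1 and HSP90B1, against 27 of 35116 promoter windows in the table (0.0769%). ERSE-II matched in 2 of 10, HERPUD1 and SDF2L1, against 19 of 35116 windows (0.0541%). TGACGTG matched in 0 of 10 members and in 1.97% of all windows. Members are counted as genes with a match in any of their windows, and the background as single windows. Since the members were chosen as known genes of this response, these counts describe them, and no enrichment was tested. Below, the first 220 bases of the windows are printed 5′ to 3′ on the strand of the gene, with the matched element in capitals. For HSP90B1 the matched elements alone are printed, since some annotated transcripts of that gene begin further upstream. Matches written CGTGG first are on the opposite strand of the gene.
HSPA5, chr9:125241374-125241593, minus strand: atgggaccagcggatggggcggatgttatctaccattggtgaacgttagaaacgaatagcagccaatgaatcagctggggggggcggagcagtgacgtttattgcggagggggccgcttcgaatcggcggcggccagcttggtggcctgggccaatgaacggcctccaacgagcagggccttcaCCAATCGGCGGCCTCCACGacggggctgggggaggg
XBP1, chr22:28800600-28800819, minus strand: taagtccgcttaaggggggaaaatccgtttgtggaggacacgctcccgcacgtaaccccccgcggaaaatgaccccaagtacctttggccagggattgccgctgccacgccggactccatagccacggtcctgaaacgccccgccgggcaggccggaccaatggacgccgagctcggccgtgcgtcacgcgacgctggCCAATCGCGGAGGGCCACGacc
HERPUD1, chr16:56931892-56932111, plus strand: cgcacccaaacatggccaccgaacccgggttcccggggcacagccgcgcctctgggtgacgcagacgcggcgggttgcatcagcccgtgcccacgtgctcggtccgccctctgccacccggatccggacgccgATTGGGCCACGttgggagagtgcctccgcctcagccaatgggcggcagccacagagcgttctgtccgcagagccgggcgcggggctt
SDF2L1, chr22:21642052-21642271, plus strand: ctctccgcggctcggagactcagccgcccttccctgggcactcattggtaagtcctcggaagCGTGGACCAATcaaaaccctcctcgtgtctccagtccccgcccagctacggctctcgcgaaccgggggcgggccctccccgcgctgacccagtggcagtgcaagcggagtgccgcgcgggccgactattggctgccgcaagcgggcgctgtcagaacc
HSP90B1, chr12:103930216-103930234, plus strand: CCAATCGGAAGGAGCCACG
HSP90B1, chr12:103930321-103930339, plus strand: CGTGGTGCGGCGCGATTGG
The ERSE of HSPA5 lay 66 to 48 bases before the start and that of XBP1 52 to 34 bases before it. HSP90B1 had an element at 194 to 176 and another at 89 to 71 bases before its start. ERSE-II lay 117 to 107 bases before the start in HERPUD1 and 188 to 178 bases before it in SDF2L1. A match is a string of letters in these windows, and binding was not measured.

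Library totals were 19966546 to 31546104 counts, and 3 counts, taken as the floor, corresponded to 0.0951 to 0.150 CPM, far below every member. CPM, the usual depth-scaled read count of RNA-seq, was computed here after edgeR's TMM scaling. CPM is a share of a library, so in these bulk samples less RNA per cell and fewer cells in a given state cannot be told apart. Of 10 myeloid markers, 9 passed the filter and none was at 0 in any group, though CD14 was low, with group means of 0.179 to 1.67 CPM; their summed level ran from 1168 to 1221 CPM in vehicle/RPMI, 1790.0 to 1797 in quizartinib/RPMI, 1437 to 1475 in vehicle/hBMSC-CM and 2142 to 2317 in quizartinib/hBMSC-CM. Of 12 stromal markers, 6 (COL3A1, LUM, DCN, THY1, LOX and POSTN) were at 0 in every group, and the summed level was highest, at 10.8 to 13.4 CPM, in quizartinib/RPMI, where no conditioned medium was present. The mean mitochondrial share of counts was 0.726% in vehicle/RPMI, 1.05% in quizartinib/RPMI, 0.511% in vehicle/hBMSC-CM and 0.856% in quizartinib/hBMSC-CM. This share was higher with the drug in either medium and lower in hBMSC-CM at either drug state. Its part in the results below was not tested. Replicates of a group differed beyond counting noise, with a chi-square per gene of 1.92 to 6.11, so no library was a copy of another.

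Compared per kilobase of the canonical transcript, the most abundant member was HSP90B1 (GRP94), the ER member of the HSP90 family, at 229 ± 1.87 CPM per kb in vehicle/RPMI (SD, n = 3, here and throughout). XBP1, the transcription factor, followed at 89.1 ± 0.785 CPM per kb and HSPA5 (BiP), the main ER HSP70 and a brake on the sensors, at 77.2 ± 12.9, a difference within the SD of HSPA5. PDIA4, a disulfide isomerase, came next at 58.0 ± 2.65 CPM per kb, before the ERAD scaffold HERPUD1 at 35.5 ± 0.495. DNAJC3, a cochaperone of BiP also known as an inhibitor of PERK, stood at 25.4 ± 0.186 CPM per kb. SEL1L, the adaptor of the ERAD ubiquitin ligase, at 16.01 ± 0.299, SDF2L1, a small partner of the BiP cycle, at 15.6 ± 1.59, and EDEM1, a lectin-like ERAD factor, at 14.4 ± 0.458 lay close together, the first pair within their spread. DNAJB9 (ERdj4), which brings BiP to IRE1, was lowest, at 3.36 ± 0.322 CPM per kb. HSP90B1 was first and DNAJB9 last in every group. XBP1 was second in 3 groups and sixth in quizartinib/RPMI, where its level per kilobase, 21.3 ± 0.555, lay below that of DNAJC3.

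The genes lie on 8 chromosomes (GRCh38, GENCODE v44), and values count reads over whole genes, so spliced and unspliced XBP1 mRNA were counted together. XBP1 is at chr22:28794555-28800597 on the minus strand, with 6 exons in its canonical transcript. HSPA5 is at chr9:125234853-125241382, minus strand, with 8 exons. PDIA4 is at chr7:149003062-149028662, minus strand, with 10 exons, and SDF2L1 at chr22:21642302-21644299, plus strand, with 3. HSP90B1, at chr12:103930107-103953931 on the plus strand with 18 exons, overlaps UQCC6 on the opposite strand by 13169 bases, and its value may be shared with that gene if strand was not used in counting. Its copies HSP90B2P and HSP90B3P had 269 and 207 counts over all libraries, against 196694 for HSP90B1, and XBP1P1 had 20 against 51264 for XBP1.

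**Figure D1:**
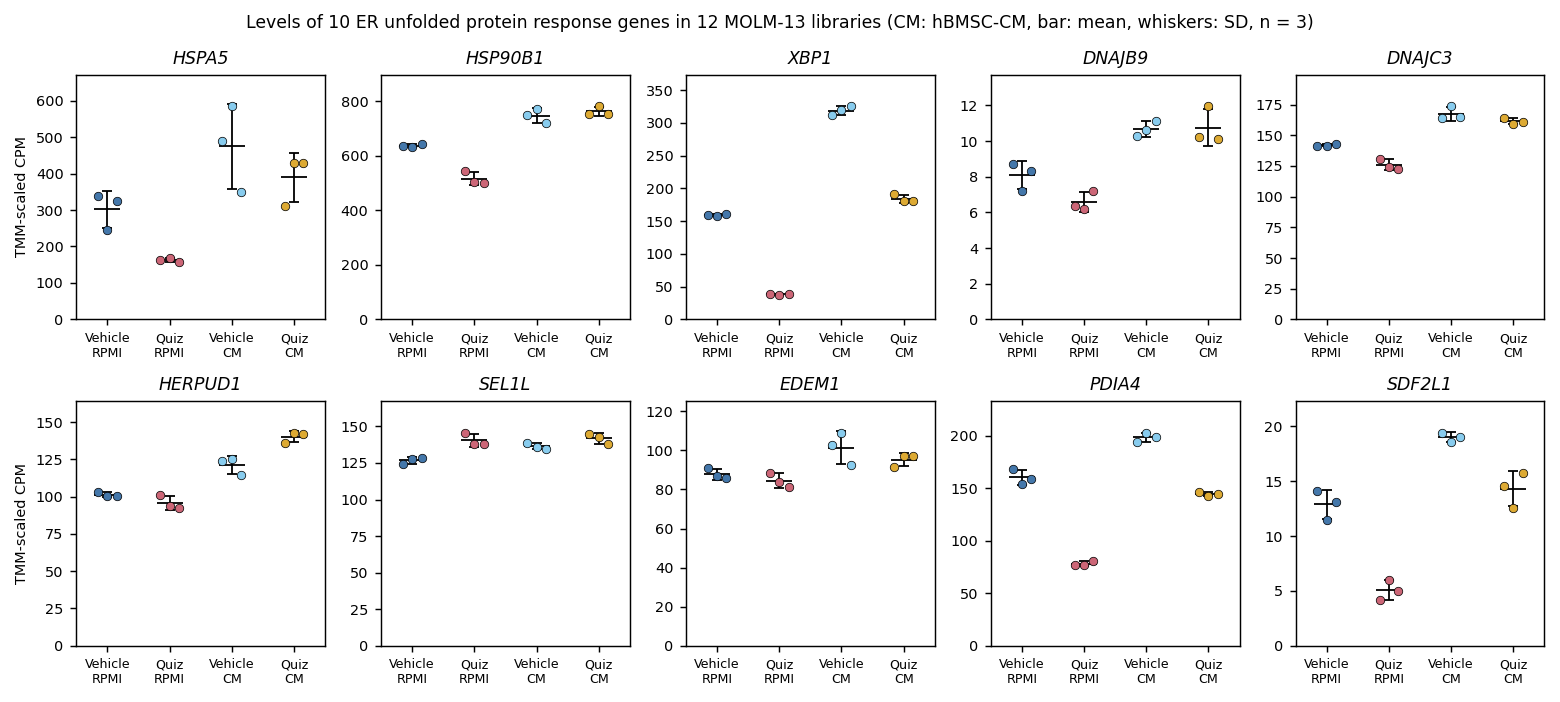
TMM-scaled CPM (vertical axes from 0) of each of the 10 members in the 12 libraries, 3 points per group, with a bar at the mean and whiskers of 1 SD; CM stands for hBMSC-CM and Quiz for quizartinib. XBP1 ran from 37.0 to 38.8 CPM in quizartinib/RPMI and from 311 to 325 in vehicle/hBMSC-CM, while SEL1L stayed between 124 and 146 in all 12 libraries.

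In RPMI, quizartinib lowered 7 of the 10 genes and raised 1, at an adjusted p under 0.05 (quasi-likelihood test of edgeR, with p-values adjusted over all 12998 genes by Benjamini-Hochberg). The drug changed much of the transcriptome in this medium, 79.2% of tested genes in either direction, 39.4% downward and 39.8% upward, and the 8 members called must be read against that. The median log2 fold change of the members was −0.31, against 0.02 for all tested genes. XBP1 fell most, SDF2L1 fell by 60.5%, PDIA4 fell by 51.2% and HSPA5 fell by 46.1%, and the other changes were below 20%.

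XBP1 read 160.0, 158 and 161 CPM in the vehicle libraries and 38.5, 37.0 and 38.8 CPM with quizartinib. The groups were far apart and each was tight. Its log2 fold change was −2.07 (SE 0.0439), so that XBP1 fell by 76.1% (adjusted p = 3.89e-20, edgeR quasi-likelihood test), and 2.48% of tested genes had a lower fold change. It ranked 50 among all genes by p in this comparison.

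The ER folding genes came next. SDF2L1 read 14.1, 11.5 and 13.1 CPM with vehicle and 4.17, 6.01 and 5.01 with quizartinib, and every treated library lay below every vehicle library. Its log2 fold change was −1.34 (SE 0.118, adjusted p = 8.98e-10, edgeR). PDIA4 went from 168, 154 and 159 CPM to 77.2, 76.8 and 80.9, a log2 fold change of −1.04 (SE 0.0435, adjusted p = 2.61e-15, edgeR). HSPA5 read 339, 245 and 324 CPM with vehicle and 163, 169 and 157 with quizartinib; vehicle replicate 2 was the low library of its group and still above all treated ones. The log2 fold change of HSPA5 was −0.89, with a wider SE of 0.140 (adjusted p = 5.9e-06, edgeR). HSP90B1 changed least among the folding genes, from 635, 633 and 643 CPM to 543, 505 and 499.6, and fell by 19.0% (adjusted p = 2.16e-06, edgeR).

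Both BiP cochaperones fell. DNAJC3 went from 142 ± 1.04 to 126 ± 4.44 CPM (log2 fold change −0.17, adjusted p = 6e-04, edgeR). DNAJB9, at single-digit CPM, went from 8.09 ± 0.775 to 6.57 ± 0.551 (log2 fold change −0.31, adjusted p = 0.01, edgeR). None of the 3 ERAD members was called lower. SEL1L rose, from 124, 128 and 128 CPM to 146, 138 and 138 (log2 fold change 0.15, adjusted p = 0.00212, edgeR). HERPUD1, at 101 ± 1.41 and 95.8 ± 4.53 CPM, had an adjusted p of 0.111, and EDEM1, at 87.9 ± 2.80 and 84.5 ± 3.78 CPM, of 0.348, both from edgeR. Scaling bears on these small values: with upper-quartile factors the median of all genes moved up by 0.11, and with these or plain library sizes DNAJB9 and DNAJC3 were no longer called and HERPUD1 and EDEM1 changed sign. With no filter on low counts, values moved down instead: SEL1L was at 0.051 and not called (adjusted p = 0.502, edgeR), and HERPUD1 (−0.18, 0.00169) and EDEM1 (−0.15, 0.0105) were called lower. DNAJB9 was also not called without vehicle/RPMI replicate 1 (adjusted p = 0.0664) or quizartinib/RPMI replicate 2 (0.059), and HERPUD1 was called, lower, without quizartinib/RPMI replicate 1 (0.034), all in edgeR.

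In hBMSC-CM the same dose of quizartinib lowered 3 of the 10 genes, XBP1, PDIA4 and SDF2L1, and raised HERPUD1. Over all tested genes, 67.1% changed in this comparison in either direction, 33.6% downward and 33.5% upward. The members' counts were thus not above the background. The members' median log2 fold change was −0.07, against 0.01 over all genes. XBP1 read 311, 319.9 and 325 CPM in the vehicle libraries and 191, 181 and 181 with quizartinib (log2 fold change −0.79, SE 0.0394, adjusted p = 3.04e-13, edgeR). The treated libraries thus stood below their own controls and above every vehicle library in RPMI. PDIA4 went from 194, 203 and 199 CPM to 146, 143 and 144 (log2 fold change −0.46, adjusted p = 4.72e-09, edgeR), and SDF2L1 from 19.4, 18.6 and 19.1 to 14.6, 12.6 and 15.8 (−0.41, adjusted p = 0.000868, edgeR). For both genes the groups did not overlap. HERPUD1, which anchors ERAD complexes in the ER membrane, read 124, 125 and 114 CPM with vehicle and 136, 143 and 142 with quizartinib (log2 fold change 0.21, adjusted p = 0.000381, edgeR).

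HSPA5 was not called in hBMSC-CM, and its libraries disagreed. It read 488, 584 and 350.4 CPM with vehicle and 310.3, 429 and 428 with quizartinib, so the groups overlapped; the log2 fold change was −0.29 (95% interval −0.57 to −0.0019, adjusted p = 0.07, edgeR). Without vehicle/hBMSC-CM replicate 3, the low control, it was −0.46 (adjusted p = 0.0011), without quizartinib/hBMSC-CM replicate 2 it was −0.36 (0.047) and without vehicle/RPMI replicate 2 it was −0.29 (0.0449), each past the threshold in edgeR, as it was at −0.32 without the filter on low counts. HSP90B1 read 752, 773 and 719 CPM with vehicle and 755, 781 and 753 with quizartinib, with overlapping groups and a log2 fold change of 0.03 (95% interval −0.06 to 0.12). DNAJB9, DNAJC3, SEL1L and EDEM1 were likewise not called, with log2 fold changes from −0.09 to 0.06. EDEM1 passed the threshold when vehicle/hBMSC-CM replicate 3 was left out, at −0.15, and HSP90B1 and SEL1L, both higher, when upper-quartile factors or plain library sizes replaced TMM.

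Whether the effect of quizartinib differed between media was tested as the interaction of drug and medium. It was called for 6 of the 10 genes, all with a higher log2 fold change of the drug in hBMSC-CM than in RPMI. For XBP1, SDF2L1, HSPA5 and PDIA4 this was a less negative value. Over all tested genes, 45.2% were called in either direction and 26.4% in this direction. XBP1 differed most: the difference was 1.28 on the log2 scale (SE 0.0586, adjusted p = 2.07e-13, edgeR), larger than in 97.1% of tested genes. SDF2L1 followed at 0.93 (adjusted p = 4.45e-05), HSPA5 at 0.60 (0.0154), PDIA4 at 0.58 (8.39e-08), HSP90B1 at 0.33 (0.000179) and HERPUD1 at 0.29 (0.000947), all by edgeR. Put as a ratio of log2 fold changes, the drug effect in hBMSC-CM was 0.38 of that in RPMI for XBP1, 0.44 for PDIA4, 0.32 for HSPA5 and 0.31 for SDF2L1, without an error on these ratios. DNAJB9 (0.32, adjusted p = 0.0698), DNAJC3 (0.12, 0.0873), SEL1L (−0.09, 0.199) and EDEM1 (−0.04, 0.739) were not called in edgeR. The call for HSPA5 was lost without vehicle/RPMI replicate 1 (adjusted p = 0.0562, edgeR) and with DESeq2's Wald test (0.0908). DNAJB9 was called without vehicle/RPMI replicate 2 or quizartinib/RPMI replicate 3, and DNAJC3 without quizartinib/RPMI replicate 1; without the filter on low counts both were called, at 0.39 and 0.19.

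**Figure D2:**
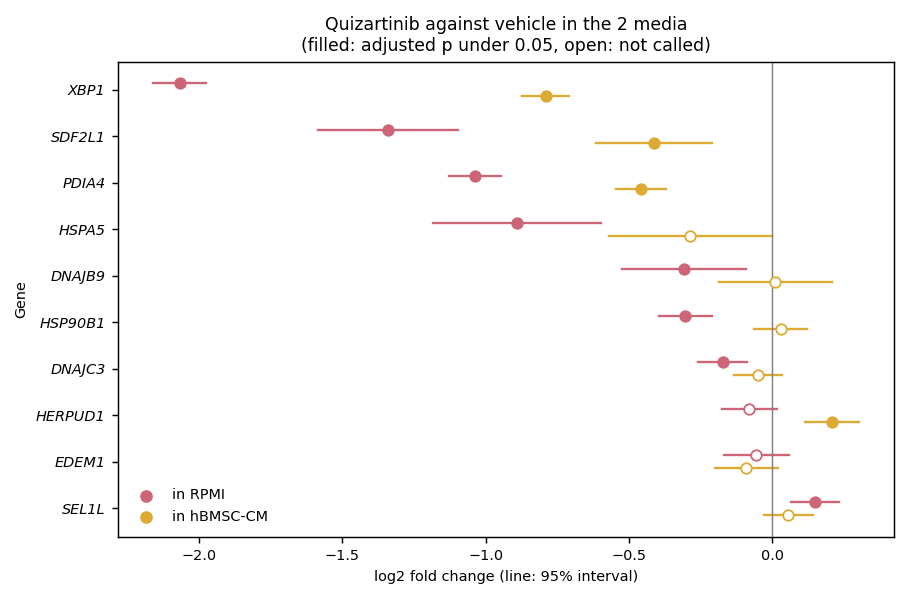
log2 fold change of quizartinib against vehicle for the 10 members in RPMI and in hBMSC-CM, from the edgeR fit, with lines for the 95% interval and filled points for adjusted p under 0.05. XBP1 stands at −2.07 in RPMI and −0.79 in hBMSC-CM, and the 2 estimates of SEL1L and of EDEM1 lie close together.

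The medium was compared at the same drug state. Among cells on quizartinib, 9 of the 10 genes stood higher in hBMSC-CM and only SEL1L was not called, where 69.8% of tested genes changed and 35.9% were higher. The members' median log2 fold change was 0.64, against 0.01 over all genes. XBP1 was at 37.0 to 38.8 CPM in RPMI and at 181 to 191 in hBMSC-CM, a log2 fold change of 2.27 (SE 0.0440, adjusted p = 5.63e-20, edgeR) that ranked 5 among all genes by p. SDF2L1 (1.49, adjusted p = 2.86e-10), HSPA5 (1.25, 7.99e-08) and PDIA4 (0.89, 1.12e-13) came next on the log2 scale, each with groups apart. All 3 HSPA5 libraries in hBMSC-CM, the low replicate 1 included, exceeded the highest RPMI library by a wide margin. DNAJB9 (log2 fold change 0.72), HSP90B1 (0.56), HERPUD1 (0.55) and DNAJC3 (0.36) were also higher, and EDEM1 (0.17, adjusted p = 0.00761) was the smallest call in edgeR. That call on EDEM1 was lost without quizartinib/RPMI replicate 3 (adjusted p = 0.0584) and with upper-quartile factors (0.0505). SEL1L differed by 0.02 (95% interval −0.07 to 0.10).

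With vehicle, each of the 10 genes was higher in conditioned medium than in RPMI. This comparison had the smallest background of the 6, with 32.1% of tested genes called and 16.6% higher, and the members' median was 0.28 on the log2 scale against −0.00 for all genes. XBP1 again led, from 160.0, 158 and 161 CPM to 311, 319.9 and 325, a log2 fold change of 1.00 (SE 0.0396, adjusted p = 8.12e-14, edgeR) that ranked 8 by p. HSPA5, at 0.65, had an adjusted p of 0.00105, SDF2L1, at 0.56, of 0.000169, DNAJB9, at 0.40, of 0.00351 and PDIA4, at 0.31, of 9.58e-06, all from edgeR. For HSPA5 the lowest hBMSC-CM library, 350.4 CPM, was just above the highest RPMI library, 339. HERPUD1 (0.26), DNAJC3 (0.24), HSP90B1 (0.23) and EDEM1 (0.21) had smaller log2 fold changes. SEL1L was the weakest, 127 ± 2.37 against 137 ± 2.25 CPM (log2 fold change 0.11, adjusted p = 0.0468, edgeR), and this call was lost in 13 of 20 alternatives, among them leaving out any vehicle/RPMI replicate. Since the same libraries enter the drug and the medium comparisons, their values are set side by side here and were not correlated.

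**Figure D3:**
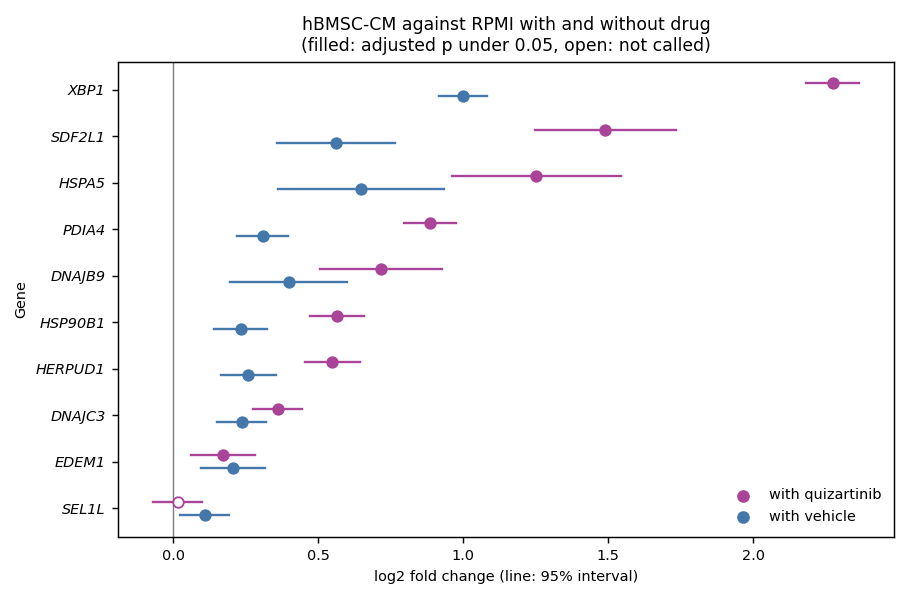
log2 fold change of hBMSC-CM against RPMI for the 10 members, with quizartinib and with vehicle, from the edgeR fit; lines are 95% intervals and filled points have an adjusted p under 0.05. With quizartinib XBP1 lies at 2.27 and SEL1L at 0.02, and with vehicle they lie at 1.00 and 0.11.

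Cells on quizartinib in hBMSC-CM were also set against untreated cells in RPMI, the comparison that places drug-treated cells in conditioned medium against the plain baseline. In this comparison 7 genes were higher, PDIA4 was lower and EDEM1 and SDF2L1 were not called, while 62% of tested genes were called, 30.6% higher and 31.4% lower. XBP1 was at 184 ± 5.85 CPM against 159.6 ± 1.41 (log2 fold change 0.21, adjusted p = 0.000122, edgeR). HERPUD1 showed the largest increase, 140.2 ± 3.67 against 101 ± 1.41 CPM (0.47, adjusted p = 1.33e-08, edgeR), and it was the member with its highest level in this group by more than the spread. PDIA4 was at 145 ± 1.85 against 160.4 ± 7.32 CPM (−0.15, adjusted p = 0.004, edgeR). The HSPA5 call (0.36, adjusted p = 0.0269, edgeR) rested on overlapping groups and was lost without vehicle/RPMI replicate 2 (0.173), quizartinib/hBMSC-CM replicate 2 (0.117) or replicate 3 (0.11), and in DESeq2 (0.131). EDEM1, at 0.12, was called in 5 alternatives: at 0.20 with plain library sizes, at 0.17 with upper-quartile factors, at 0.13 when only the groups compared were fitted, and without vehicle/hBMSC-CM replicate 3 or quizartinib/hBMSC-CM replicate 1. With plain library sizes PDIA4 was not called and SDF2L1 was.

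The order of the 4 group means was not the same for all members. XBP1, PDIA4, SDF2L1, HSPA5, DNAJC3 and EDEM1 had their lowest mean in quizartinib/RPMI and their highest in vehicle/hBMSC-CM. Of these, HSPA5, DNAJC3 and EDEM1 were not called between the drug states in hBMSC-CM, and EDEM1 was not called between them in RPMI either. HSP90B1, DNAJB9 and HERPUD1 also had their lowest mean in quizartinib/RPMI, but their highest in quizartinib/hBMSC-CM, and of these only HERPUD1 was called between the drug states in that medium. SEL1L had its lowest mean in vehicle/RPMI, and its 3 other groups, at 141 ± 4.45, 137 ± 2.25 and 142 ± 3.81 CPM, did not differ beyond their spread.

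Related gene lists, chosen with earlier results known, put the members in their setting. None holds a member. Of 24 other ER chaperones and folding enzymes, 18 fell, 2 rose and 4 were not called with quizartinib in RPMI, with a median log2 fold change of −0.42 against 0.02 for all genes and a background of 39.4% called lower. The 2 that rose in RPMI were ERO1B and ERP29, at 1.14 and 0.43 on the log2 scale. In hBMSC-CM against RPMI on quizartinib, 20 of the 24 were higher and 3 lower, with a median of 0.45. Over all tested genes, 35.9% were higher and 33.9% lower. ERO1B (−0.43) and ERP29 (−0.50) were among the 3 lower. MANF, a secreted partner of BiP, went from 76.0 ± 2.44 CPM to 27.3 ± 1.83 with quizartinib in RPMI and stood at 76.2 ± 3.63 CPM with quizartinib in hBMSC-CM. HYOU1, the large ER HSP70 that exchanges nucleotide on BiP, was at 282 ± 4.39, 136 ± 4.92 and 288 ± 12.9 CPM in the same 3 groups. The 22 genes of ER translocation and COPII export had 14 lower and 3 higher with quizartinib in RPMI (median −0.23), and 16 higher and 2 lower between media on the drug (median 0.24). In that list SRPRB, a subunit of the receptor for the signal recognition particle, had log2 fold changes of −1.29 and 1.04 in those comparisons. SEC31A (0.40 and −0.25) and SEC11A (0.33 and −0.12) went the other way.

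Of 20 other ERAD genes, 8 fell and 6 rose with quizartinib in RPMI (median 0.02), beside 39.4% and 39.8% of all tested genes. Between media on quizartinib 8 were higher and 7 lower (median 0.03), beside 35.9% and 33.9% of all genes. These shares are near the background. UBE2G2, a ubiquitin-conjugating enzyme of ERAD, was the largest fall named, from 138 ± 3.05 to 52.7 ± 2.01 CPM. HERPUD2 and OS9 had the largest rises named, of 0.74 and 0.67 on the log2 scale. Among 11 sensors and transducers, 4 rose and 5 fell with quizartinib in RPMI (median 0.00). ERN1 went opposite to XBP1, from 16.7 ± 0.444 to 38.0 ± 0.403 CPM in RPMI, and was at 19.9 ± 1.14 CPM with quizartinib in hBMSC-CM. ATF6 was at 115 ± 4.32 and 116 ± 2.16 CPM and EIF2AK3 at 35.6 ± 0.723 and 32.6 ± 2.24 CPM without and with quizartinib in RPMI. These are mRNA levels, and neither splicing by IRE1 nor cleavage of ATF6 was measured.

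Of the 11 genes of the PERK-ATF4 arm, 10 were tested, and with quizartinib in RPMI 6 fell and 2 rose (median −0.36). Over all tested genes, 39.4% fell and 39.8% rose in this comparison. TRIB3, a pseudokinase induced by ATF4, fell by 1.96 on the log2 scale, and PPP1R15A (GADD34), the phosphatase subunit that restores translation, rose by 0.87. Between media on quizartinib 3 of the 10 were higher and 3 lower, near the 35.9% and 33.9% of all tested genes. DDIT4, an inhibitor of mTORC1, was at 1.78 and PPP1R15A at −1.01 on the log2 scale. Chaperones outside the ER, from the cytosolic and mitochondrial heat shock list, had a lower median than the ER list: 12 of 14 tested genes fell and 0 rose with quizartinib in RPMI, with a median of −1.18. The difference between lists was not tested. Between media on quizartinib 12 of 14 were higher and 1, HSPB1 (−0.35), lower (median 0.66), against the same background. HSPE1 had log2 fold changes of −2.14 with quizartinib in RPMI and 1.41 between media on quizartinib. HSPA8, the constitutive cytosolic HSP70 and a paralog of HSPA5, was at 5088 ± 89.0 CPM in vehicle/RPMI, 1428 ± 16.5 in quizartinib/RPMI, 5693 ± 265 in vehicle/hBMSC-CM and 2987 ± 171 in quizartinib/hBMSC-CM. The mitochondrial paralogs HSPA9 and TRAP1 had log2 fold changes of −1.53 and −0.95 with quizartinib in RPMI, and the cytosolic HSP90AA1 and HSP90AB1 of −1.62 and −0.80, beside −0.30 for HSP90B1.

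The lists were counted in the other 4 comparisons as well, given here for the ER chaperones, the heat shock genes, the ERAD genes and the PERK-ATF4 arm. In hBMSC-CM, where 33.6% of all tested genes were lower and 33.5% higher, quizartinib lowered 15 and raised 3 of the 24 ER chaperones (median −0.19), lowered all 14 heat shock genes (−0.65), and lowered 10 and raised 3 of the 20 ERAD genes (−0.13). With vehicle, where 16.6% of all genes were higher and 15.5% lower, hBMSC-CM raised 15 and lowered 1 of the ER chaperones (0.19), raised 4 and lowered 1 of the ERAD genes (0.01), and raised 8 heat shock genes with none lowered (0.15); this last count was 4 without vehicle/hBMSC-CM replicate 2 and 5 without vehicle/RPMI replicate 3. The interaction, called higher for 26.4% and lower for 18.8% of all genes, was called higher for 13 and lower for 2 of the ER chaperones (0.19), for 9 and 1 of the heat shock genes (0.48), and for 4 and 7 of the ERAD genes (0.02). Quizartinib in hBMSC-CM against vehicle in RPMI left 16 of 24 ER chaperones uncalled, with 5 higher and 3 lower (0.00), while 13 of the 14 heat shock genes were lower (−0.52), beside 30.6% of all genes higher and 31.4% lower. In the same comparison 9 of the 20 ERAD genes were lower and 4 higher (−0.10). Of the 10 tested PERK-ATF4 genes, quizartinib in hBMSC-CM lowered 7 and raised 1 (−0.49). With vehicle, hBMSC-CM raised 4 and lowered 1 of them (0.14). The interaction was called higher for 3 and lower for 3 (−0.33). Against vehicle in RPMI, quizartinib in hBMSC-CM had 6 lower and 2 higher (−0.39).

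**Figure D4:**
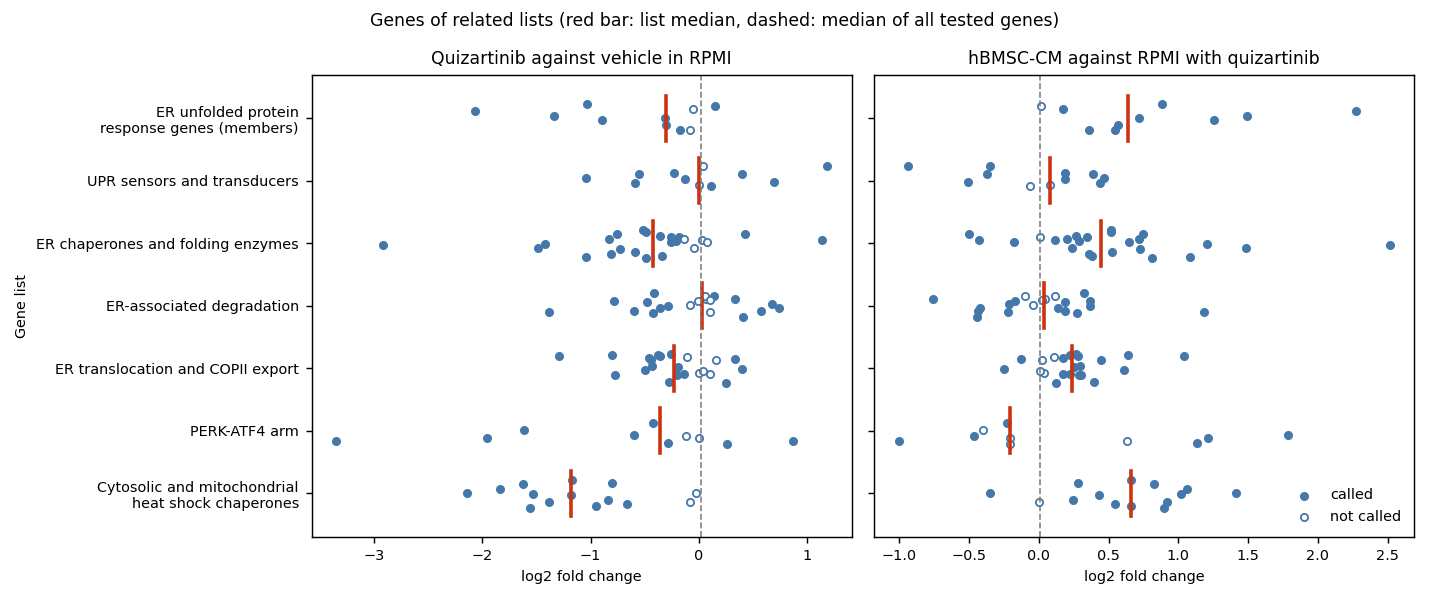
log2 fold changes of the members and the related lists with quizartinib against vehicle in RPMI and in hBMSC-CM against RPMI on quizartinib; each point is a gene (filled where the adjusted p is under 0.05), the bar is the list's median and the dashed line the median of all tested genes. The medians are −0.31 and 0.64 for the 10 members, −0.42 and 0.45 for the ER chaperones, 0.02 and 0.03 for ERAD and −1.18 and 0.66 for the heat shock chaperones.

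The genes most like 3 members in level across the 12 libraries were listed by Pearson's r of log2 CPM among 9272 genes outside the members that averaged 10 CPM or more. The 12 libraries fall into 4 groups, so these r values reflect the group means and deviations shared within groups, and are given as a description. For XBP1 they were B4GALT5 (r = 0.997), a glycosyltransferase, then PLEKHB2 (0.997), STOM (0.997), SCD (0.996), a fatty acid desaturase, and SLC2A3 (0.996), a glucose transporter. For SDF2L1 they were MELTF (0.992), TLE3 (0.990), MATK (0.989), ADCY3 (0.989) and TRPM2 (0.988). For HSPA5 they were FKBP5 (0.986), PRICKLE1 (0.976), P4HB (0.968), a protein disulfide isomerase, HK2 (0.966) and CNDP2 (0.964). HSPA5 had the widest spread within groups of all members, and FKBP5 followed it there too (r = 0.981 within groups).

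Members differed in how well replicates agreed. The SD of log2 CPM within groups was 0.26 for HSPA5, while the median of the 1000 tested genes nearest in abundance was 0.051, and 99.8% of them had a smaller SD. SDF2L1 (0.17) was above 94.4% of its neighbours. XBP1, DNAJC3 and SEL1L were tight, at 0.034 to 0.036, above only 10.6%, 12.9% and 10.1% of theirs. The low HSPA5 libraries were replicate 2 of vehicle/RPMI at 245 CPM, replicate 3 of vehicle/hBMSC-CM at 350.4 and replicate 1 of quizartinib/hBMSC-CM at 310.3, while quizartinib/RPMI had no such library. Library size did not single them out, at 26181522, 21890648 and 28039168 counts. Over all genes, though, these libraries differed most from the others of their groups. Chi-square per gene was 2.96 and 2.62 against 1.95 in vehicle/RPMI and 6.11 and 4.25 against 2.53 in vehicle/hBMSC-CM. It was 5.66 and 5.47 against 2.20 in quizartinib/hBMSC-CM. Quizartinib/RPMI replicate 1 also stood apart (2.81 and 3.87 against 1.92). Deviations of the low libraries correlated with each other over all tested genes (r = 0.14 to 0.23).

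**Figure D5:**
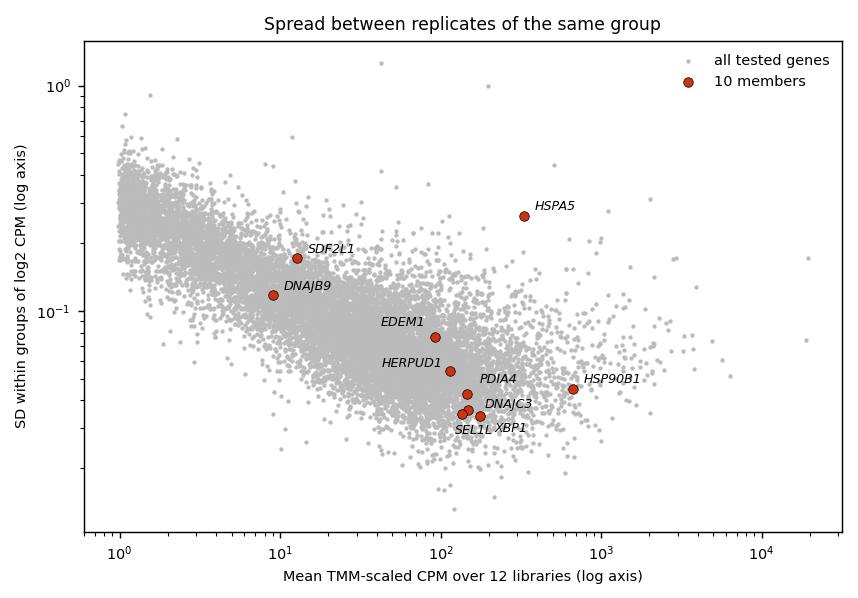
SD of log2 CPM within groups against mean CPM over the 12 libraries (both axes log) for all tested genes in grey and the 10 members in red. HSPA5, at 332 CPM and an SD of 0.26, lies above nearly all genes of like abundance, and XBP1, at 175 CPM and 0.034, lies near the lower edge.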

How the data were processed

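RNA from MOLM-13 cells was sequenced by the authors, who aligned reads with STAR 2.6.0a and deposited raw counts per gene name; per the study's methods the build was hg38 with an Ensembl annotation, and limma was used for testing. A strand setting for the counting step is not given in the sources used here. The deposited counts were used as they are. Genes with a mean count and a mean CPM of at least 1 were kept (12998 of 57353) and fitted in edgeR 4.0.16 (R 4.3.3) with TMM factors of 0.956 to 1.04, as 4 group means over 12 libraries with 8 residual degrees of freedom. Quasi-likelihood tests of 6 contrasts were adjusted by Benjamini-Hochberg over all tested genes at 0.05. CPM values in the text are TMM-scaled, and log2 CPM used a prior count of 2. Intervals are 95%.

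The members were chosen by name as known genes of the response, and the lists from general knowledge, with earlier results of these data known. Beside the members, genes were named from those with the largest called rises and falls of each list (mean of at least 10 CPM). These came from quizartinib against vehicle in RPMI and from hBMSC-CM against RPMI on quizartinib, and not all of them are named. The sensors ERN1, EIF2AK3 and ATF6 and paralogs of members were named as well. Replicates are labelled by number, and the labels do not say whether they are separate cultures. Each p-value sets a difference between groups against the spread between these libraries. Alternatives were other scalings, no filter, limma-voom 3.58.1, DESeq2 1.42.0, a replicate block, only the groups compared, and each library left out. The script was tested on simulated data. Positions and lengths are from GENCODE v44, promoters from RefSeq GRCh38.p14.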

Additional observations from a re-analysis of the deposited data

Results flagged for a closer look

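For 6 members the effect of quizartinib differed between hBMSC-CM and RPMI in edgeR's interaction test (adjusted p under 0.05, background 45.2% of tested genes). As the effect in hBMSC-CM minus that in RPMI, on the log2 scale, the difference was 1.28 for XBP1 (−0.79 and −2.07), 0.93 for SDF2L1 (−0.41 and −1.34), 0.60 for HSPA5 (−0.29 and −0.89), 0.58 for PDIA4 (−0.46 and −1.04), 0.33 for HSP90B1 (0.03 and −0.30) and 0.29 for HERPUD1 (0.21 and −0.08). Those of XBP1, SDF2L1, PDIA4, HSP90B1 and HERPUD1 were called in all alternatives run, and that of HSPA5 was lost in DESeq2 and without vehicle/RPMI replicate 1. With 3 libraries a group, single libraries were not screened for outliers.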

How the results depend on the processing

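Over 1190 values of members under alternatives, 1119 kept direction and side of the threshold, 29 lost a call, 23 gained one and 19 changed sign, all among small uncalled values, and of 922 counts 916 stayed within 1.5 times. The cause was not tested. Quizartinib in RPMI turned to 0.025 and 0.011 for HERPUD1 and to 0.051 and 0.037 for EDEM1 with upper-quartile factors and library sizes. In hBMSC-CM the drug's value for DNAJC3 turned to 0.031 and 0.052 under the same settings and for EDEM1 to 0.012 with library sizes; HSP90B1 turned to −0.0025 without the filter; DNAJB9 turned to −0.0035 with DESeq2 size factors, −0.0039 with the DESeq2 test and −0.022 without the filter, and ran from −0.069 to 0.054 over libraries left out. SEL1L between media on quizartinib turned to −0.036 with upper-quartile factors and ran from −0.0084 to 0.040 over libraries left out. The EDEM1 interaction turned to 0.031 without the filter and ran from −0.095 to 0.019 over libraries left out. In lists, called sensors for quizartinib/hBMSC-CM against vehicle/RPMI went from 4 to 7 with upper-quartile factors and to 7 with library sizes, and translocation genes in the interaction from 7 to 11 without the filter. For hBMSC-CM against RPMI with vehicle, leaving out libraries gave 3 to 5 called sensors (5 without vehicle/RPMI replicate 3) and 4 to 9 heat shock genes (4 without vehicle/hBMSC-CM replicate 2).

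Upper-quartile factors moved the median of all genes by 0.11 for quizartinib in RPMI and library sizes by 0.10 for quizartinib in hBMSC-CM. The share of called genes that were higher was 49.97% for quizartinib in hBMSC-CM, 60.0% with upper-quartile factors and 62.7% with library sizes; for quizartinib/hBMSC-CM against vehicle/RPMI it was 49.3% and, with library sizes, 62.0%. Replicate numbers did not pair libraries (r of deviations −0.23 to 0.098 over 18 same-numbered pairs, and 0 of 12 libraries correlated best with their own number). With the replicate block 8 members and 10216 genes were called for quizartinib in RPMI, 4 and 8614 for quizartinib in hBMSC-CM, 9 and 8938 between media on quizartinib, 9 and 3938 between media with vehicle, 8 and 7927 for quizartinib/hBMSC-CM against vehicle/RPMI and 6 and 5671 for the interaction; the only member call that changed was SEL1L between media with vehicle (adjusted p = 0.0624). Depth limits DNAJB9 and SDF2L1, at under 20 CPM, more than the others.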

Other observations

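The within-group deviations of HSPA5 were shared by other genes, chosen here after their values were seen. Over the 12 libraries, with each library's log2 CPM taken relative to its group mean, SNRNP200 (r = 0.994), SNRPA1 (0.993), both of the spliceosome, TFCP2 (0.991), the cytosolic chaperone HSP90AA1 (0.990) and FOXJ2 (0.985) followed HSPA5 most closely, and 123 of 9280 genes had r above 0.9. HSP90AA1 was at 1135 CPM in vehicle/RPMI replicate 2, against 1428 and 1401 in the other replicates. It was at 1129 CPM in vehicle/hBMSC-CM replicate 3, against 1463 and 1715. TYMS, the enzyme that makes thymidylate, was at 104 CPM in vehicle/RPMI replicate 2, against 139 and 130.3 in the others of its group. Among members, EDEM1 (0.80) and HERPUD1 (0.71) had the highest r with HSPA5, and XBP1 had −0.48. The r with the log2 total count was −0.13, with the mitochondrial share 0.50 and with the TMM factor 0.14. These r values describe 12 libraries in 4 groups, and what moved them was not tested.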
